A study of Mus musculus with 2 samples.

Results

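The p53 target genes examined here are 10 mouse genes whose transcription p53 is known to raise, out of 19935 genes measured by a probe set that names the gene alone. They were taken by symbol from the platform annotation and by no cut on their values, and each of the 10 had exactly 1 probe set. However, they and the gene lists below were chosen with earlier results of these data known, so their counts are descriptions only. The cells were Ba/F3, a mouse pro-B-like line that needs interleukin-3 (IL-3), constitutively expressing BCR-ABL, the fusion kinase of chronic myeloid leukaemia that imatinib inhibits. One array held cells grown with IL-3 and the other held cells grown without IL-3. Both arrays had cells in RPMI medium with 10% serum, given imatinib for 6 h at a dose that the labels write as 5 μm and that is read here as 5 µM. The series set out to compare cells due to survive imatinib with cells due to die from it, and both titles call the cells live. With 1 array per condition there was no replicate, so no difference below has a test or a standard error. The labels do not say whether the BCR-ABL cells came from 1 clone.

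p53 is a transcription factor that DNA damage and other stresses stabilise. It binds paired copies of a 10-base half-site and turns on genes that halt the cell cycle, repair DNA, limit oxidative and metabolic stress or start apoptosis. It also turns on Mdm2, the ubiquitin ligase that degrades p53 and so closes a feedback loop.

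Of the 7 members with a promoter window in the RefSeq table of GRCm38.p6, 3 held an exact p53 half-site. Their windows are shown because the half-site is the feature that p53 itself reads. Each window runs 5′ to 3′ on the gene's strand from 250 bases before to 50 bases after an annotated start, and capitals mark the half-site.
Mdm2, chr10:117710709-117711008, minus strand: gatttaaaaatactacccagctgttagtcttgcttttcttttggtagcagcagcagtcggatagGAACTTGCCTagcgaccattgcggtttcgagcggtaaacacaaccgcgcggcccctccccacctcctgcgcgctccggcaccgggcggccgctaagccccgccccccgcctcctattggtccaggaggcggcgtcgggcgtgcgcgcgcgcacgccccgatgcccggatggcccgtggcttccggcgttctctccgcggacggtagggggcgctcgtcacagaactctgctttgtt
Ccng1, chr11:40755237-40755536, minus strand: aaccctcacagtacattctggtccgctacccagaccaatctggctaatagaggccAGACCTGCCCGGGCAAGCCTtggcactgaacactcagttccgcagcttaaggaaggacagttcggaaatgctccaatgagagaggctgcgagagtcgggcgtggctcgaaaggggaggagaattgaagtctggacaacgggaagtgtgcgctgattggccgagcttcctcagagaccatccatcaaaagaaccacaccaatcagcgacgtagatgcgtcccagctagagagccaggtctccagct
Aen, chr7:78895808-78896107, plus strand: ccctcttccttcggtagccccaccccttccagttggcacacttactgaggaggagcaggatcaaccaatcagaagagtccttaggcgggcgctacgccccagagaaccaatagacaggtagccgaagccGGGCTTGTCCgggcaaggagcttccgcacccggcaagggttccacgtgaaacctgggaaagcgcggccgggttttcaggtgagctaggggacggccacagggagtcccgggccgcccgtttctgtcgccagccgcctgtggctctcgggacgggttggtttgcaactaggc

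The half-site began 186 bases before the annotated start in Mdm2, and this window covers the upstream promoter only. In Ccng1 it began 185 bases before the start and directly followed a decamer with 1 mismatch to the half-site, which is also in capitals, so that the 20 capitals form a paired site. In Aen it began 121 bases before the start shown and 10 bases after another annotated start of the same gene. The windows of Phlda3, Sesn2, Plk2 and Fas held no exact half-site, which says only that these letters are not in these 300 bases. No promoter of Trp53inp1, Zmat3 or Perp was used here. Over all 32851 windows, 8.36% held an exact half-site, and 1.09% held one with a further decamer of at most 1 mismatch within 13 bases. Counted by gene, as the members were, 9.55% of 27025 genes had a window with an exact half-site. The half-site was searched by its consensus, which reads the same on both strands. The search for a second decamer was added after the half-sites were seen. Half-sites were found both in members lower with IL-3 and in a member higher with IL-3, and no test was made of the motif against the differences.

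The 10 genes did not differ together between the arrays. Trp53inp1 stood apart at 2.99-fold lower with IL-3, Fas followed at 1.47-fold lower, and Sesn2 was the highest at 1.27-fold higher. The other 7 genes lay at 1.19-fold or less in either direction. A 2-fold difference was reached by 1 of the 10 genes on the lower side (10.0%) and by 0 on the higher side, against 0.657% of all genes lower and 0.441% higher. At 1.5-fold the counts among the 10 genes were again 1 lower and 0 higher, against 2.71% and 3.52% of all genes. The median log2 difference of the 10 genes was -0.04, with 8 below 0, and all genes had a median of 0.04, with 40.1% below 0. Trp53inp1 and Fas were the members nearest to the 1.5-fold line on either side of it.

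**Figure D1:**
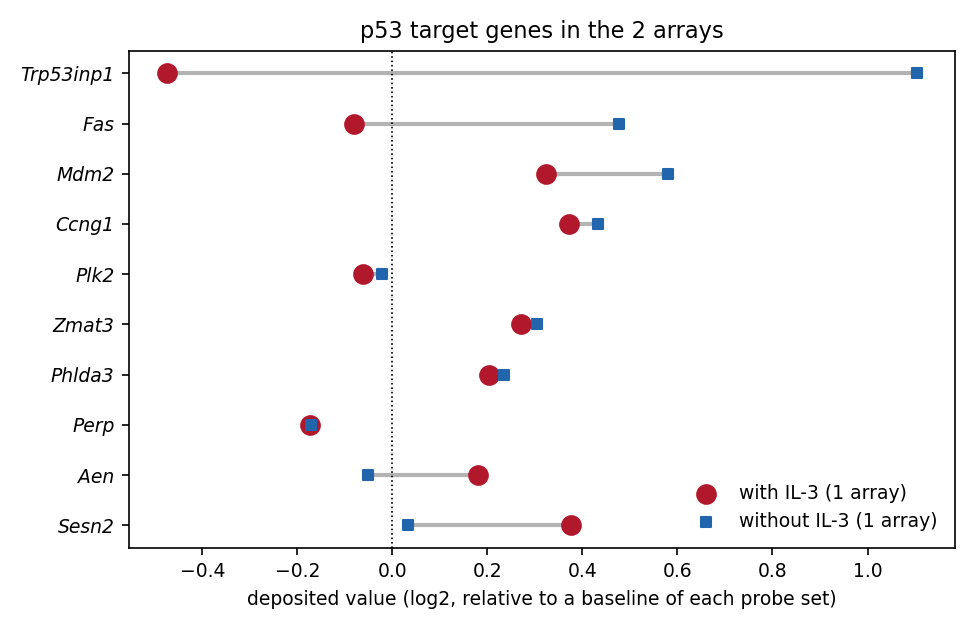
Deposited values of the 10 p53 target genes in the array with IL-3 (large circles) and the array without IL-3 (small squares), on a log2 scale whose 0 (dotted line) is that probe set's baseline. Trp53inp1 lies at -0.47 with IL-3 and at 1.10 without IL-3, and the 2 symbols of Perp lie on top of each other.

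All values below are taken as log2 values from which a baseline had been subtracted, separately for each probe set. A value of one gene therefore cannot be set against the value of another as an expression level. Each difference is the value with IL-3 less the value without IL-3. The only measure of error within the arrays was the spread of this difference between probe sets of the same gene, a pooled SD of 0.14 over 998 genes. It leaves out variation between cultures and can include real differences between probe sets of a gene, so it is only a rough guide to the error. Of all genes, 55.9% differed by less than 1 such SD and 21.1% by more than 2. Among the p53 target genes, 5 differed by less than 1 SD and 3 by more than 2, namely Trp53inp1, Fas and Sesn2. The direction follows the sample titles. The description of the array titled with IL-3 instead says that IL-3 was absent, and if the titles were swapped every sign would turn.

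Of the feedback genes, Mdm2, the ligase that degrades p53, had a value of 0.32 in the array with IL-3 and 0.58 in the array without IL-3, a difference of -0.26 or 1.19-fold lower. Both values were above the baseline, and the difference was 1.78 times the SD between probe sets. Among the 25% of genes with the highest mean values, where Mdm2 lay and differences scattered more widely, 19.5% of genes were more negative. Ccng1, cyclin G1, which recruits a phosphatase that acts on MDM2, had 0.37 with IL-3 and 0.43 without IL-3. Its difference of -0.06 was smaller than the SD between probe sets. Its promoter carried the only paired site found among the 7 members with a window, and pairs were sought only beside an exact half-site.

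Trp53inp1 encodes a stress-induced protein that promotes p53 phosphorylation and apoptosis and takes part in autophagy. Its value was -0.47 with IL-3 and 1.10 without IL-3, a difference of -1.58. In the array without IL-3 its baseline-relative value was above that of 99.0% of genes, whereas in the array with IL-3 it was above that of 2.19%. The array with IL-3 was thus below the baseline and the array without IL-3 well above it. Only 0.145% of all genes were more negative in their difference, and 0.341% of the 25% of genes with the highest mean values. Without Trp53inp1 the median difference of the remaining 9 genes was -0.03, and 0 of them reached 1.5-fold in either direction.

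Fas encodes the death receptor CD95, through which Fas ligand starts caspase activation. Its value was -0.08 with IL-3 and 0.48 without IL-3, a difference of -0.56. This was 3.87 times the SD between probe sets, and 2.93% of all genes were more negative. As with Trp53inp1, the array with IL-3 lay below the baseline and the array without IL-3 above it, and these were the 2 members with that pattern.

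The other apoptosis genes differed little. Aen, an exonuclease that digests DNA in apoptotic cells, went the opposite way from Fas, with 0.18 with IL-3 and -0.05 without IL-3. Its difference of 0.23 was 1.61 times the SD between probe sets, and 16.2% of all genes were more positive. Phlda3, a pleckstrin-homology protein that restrains AKT, had 0.20 with IL-3 and 0.23 without IL-3. Zmat3, an RNA-binding zinc finger protein, had 0.27 with IL-3 and 0.30 without IL-3. Perp, a membrane protein of apoptosis and of desmosomes in epithelia, had -0.174 with IL-3 and -0.170 without IL-3. The differences of Phlda3, Zmat3 and Perp were -0.03, -0.03 and -0.004, at most 0.237 times the SD between probe sets. Phlda3 and Zmat3 lay above the baseline in both arrays and Perp below it in both.

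Plk2, a polo-like kinase of the cell cycle and of centriole duplication, had -0.06 with IL-3 and -0.02 without IL-3, a difference of -0.04 that was within the SD. Sesn2, sestrin 2, which restrains mTORC1 when amino acids are short and limits oxidative stress, had 0.38 with IL-3 and 0.03 without IL-3. Its difference of 0.34 was 2.37 times the SD between probe sets, and 9.83% of all genes were more positive. Sesn2 is also known as a target of ATF4, so that it does not report on p53 alone. For Trp53inp1 and Fas too, whether their differences came through p53 was not tested.

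**Figure D2:**
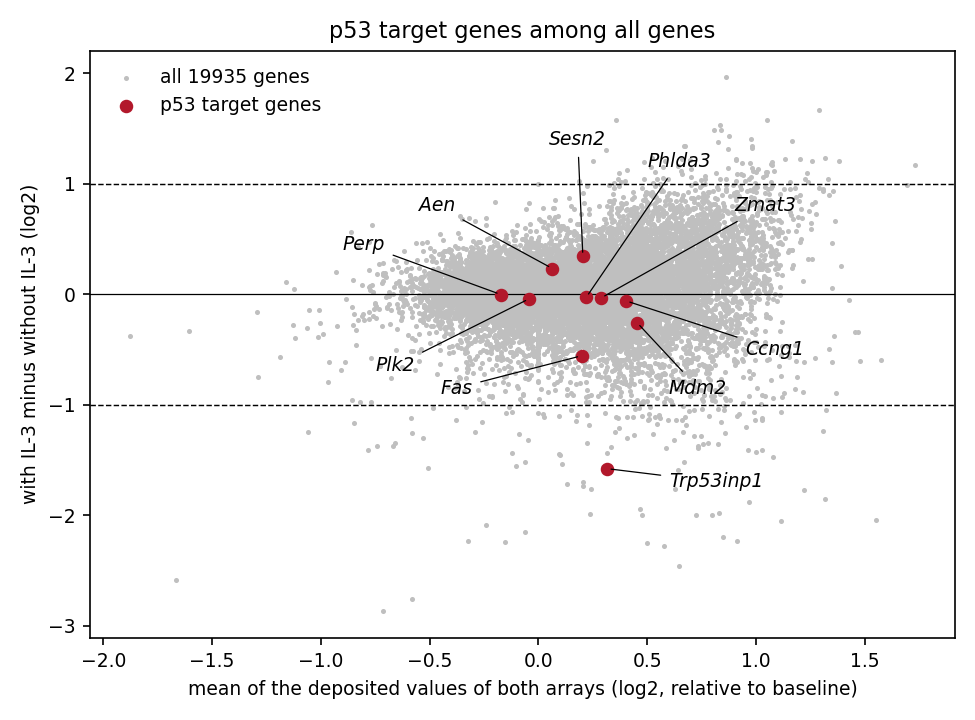
Difference with IL-3 minus without IL-3 (log2, vertical axis) against the mean of both arrays (log2 relative to baseline, horizontal axis) for all 19935 genes (grey) and the 10 p53 target genes (red), with dashed lines at 2-fold. Trp53inp1 at -1.58 is the member outside the lines, and Fas at -0.56 and Sesn2 at 0.34 lie within the cloud of other genes.

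The 10 genes were not alike in where they lay on the baseline-relative scale. With IL-3, 6 of the 10 were above the baseline, and without IL-3, 7 were, against 45.3% and 43.4% of all genes. Their median value was 0.19 with IL-3 and 0.27 without IL-3. Mdm2, Ccng1, Zmat3, Phlda3 and Sesn2 were above the baseline in both arrays, and Plk2 and Perp were below it in both. Neither the labels nor the file say which arrays made the baseline, so these positions have no condition to be set against.

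The wider pathway was read from 58 further symbols, of which 53 were measured. They were 18 regulators of p53 and 35 other target genes. Trp53 itself, Cdkn1a, which encodes the cell cycle inhibitor p21, and Bax, Gls2 and Sco2 were not analysed here. Of the 53 genes, 25 were above 0 and 28 below 0, with a median difference of -0.02. Of all genes, 59.8% were above 0. At 1.5-fold, 4 were lower (7.55%) and 4 were higher (7.55%), against 2.71% and 3.52% of all genes. At 2-fold 1 was lower and 0 were higher, against 0.657% and 0.441%. Btg2 and Pidd1 aside, those past 1.5-fold lay among the 25% of genes with the highest mean values. There 6.68% were lower and 12.8% higher at 1.5-fold. The same shares stand beside the counts by role below. The 35 targets alone had 16 above 0, 19 below 0 and a median of -0.06.

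Among the regulators, the 2 genes past 1.5-fold were both higher with IL-3 and both encode checkpoint kinases of replication stress. Chek1 had 1.64 with IL-3 and 0.68 without IL-3, a 1.94-fold difference. Atr, the kinase that activates CHK1, had 1.21 with IL-3 and 0.44 without IL-3, a 1.70-fold difference. Of the 18 regulators, 9 were above 0 and 9 below 0, with a median of 0.04. Mdm4, the partner of MDM2 that masks the p53 activation domain, had -0.04 with IL-3 and 0.04 without IL-3, a difference of -0.08 against -0.26 for Mdm2.

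The cell cycle targets held the largest differences of the wider list. Btg2, an antiproliferative factor that promotes mRNA deadenylation, had -0.65 with IL-3 and 0.38 without IL-3, 2.03-fold lower. Plk3, a stress-responsive polo-like kinase, had 0.11 with IL-3 and 1.11 without IL-3. Its difference of -0.998 fell just short of 2-fold and stands beside the -0.04 of its relative Plk2. Both Btg2 and Plk3 are also known as immediate early genes that respond to signals other than p53. Of the 9 measured cell cycle targets, 4 were above 0 and 5 below 0, with a median of -0.11.

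Apoptosis targets outside the 10 genes were mixed, with 7 of 12 above 0 and a median of 0.03. Siva1, an apoptosis-promoting adaptor, was higher by 1.58-fold with IL-3 (0.67, against 0.01 in the array without IL-3), and its 2 probe sets differed by 0.22 and 0.66. Pidd1, the death-domain scaffold of the caspase-2 platform, was 1.51-fold higher (0.24, against -0.36 in the array without IL-3). Bbc3, which encodes PUMA, had -0.221 with IL-3 and -0.226 without IL-3. Pmaip1, which encodes NOXA, had -0.26 with IL-3 and -0.11 without IL-3. The differences of Bbc3 and Pmaip1 were 0.005 and -0.15.

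Metabolism and antioxidant targets had 2 of 7 above 0, a median of -0.06 and 1 gene past 1.5-fold. This was Gpx1, glutathione peroxidase 1, which was 1.51-fold lower (0.09, against 0.69 in the array without IL-3). DNA repair targets had 3 of 7 above 0, a median of -0.10 and 1 gene past 1.5-fold. This was Xpc, the damage sensor of nucleotide excision repair, which was 1.60-fold lower (0.03, against 0.71 in the array without IL-3).

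**Figure D3:**
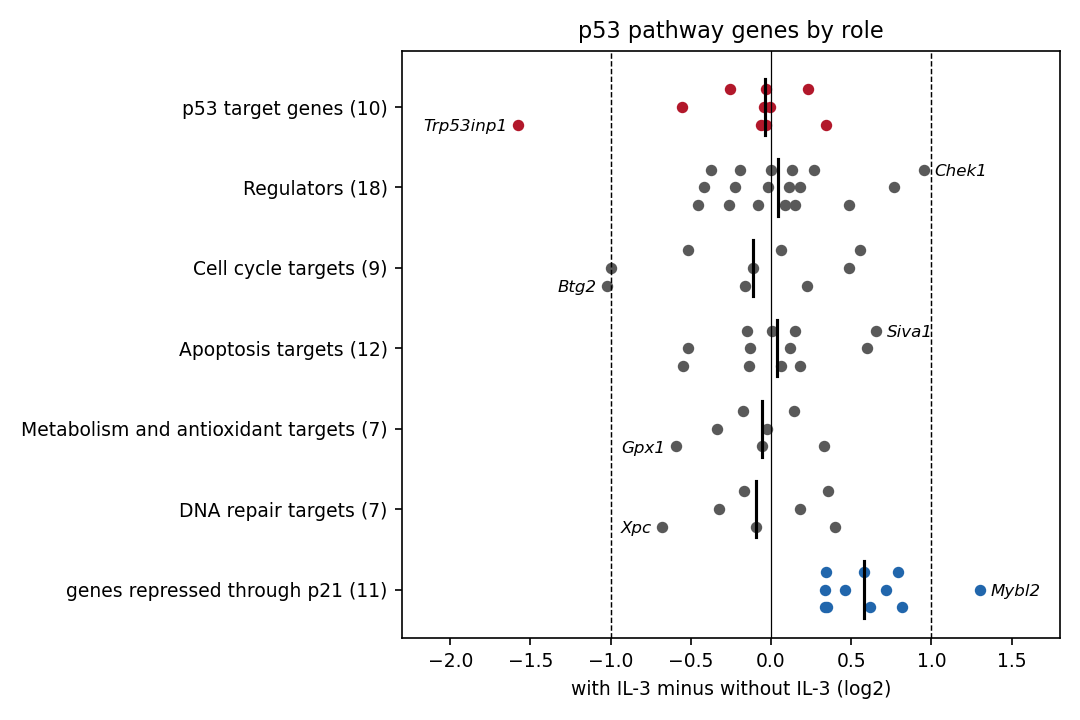
Difference with IL-3 minus without IL-3 (log2, horizontal axis) for each measured gene of the p53 pathway, in rows by role with the number of genes in brackets; black bars are medians, dashed lines mark 2-fold, and the vertical offset within a row only separates points. The medians lie between -0.11 and 0.04 in every row except the 11 genes repressed through p21, at 0.58.

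p53 also lowers a group of cell cycle genes indirectly, through p21 and the DREAM repressor complex, and the same genes peak in dividing cells whatever p53 does. Of 12 such genes listed, 11 were measured, and all 11 were above 0, from 0.34 to 1.30 with a median of 0.58, against 59.8% above 0 among all genes. At 1.5-fold, 5 of the 11 (45.5%) were higher with IL-3 and 0 were lower. All 11 lay among the 25% of genes with the highest mean values, of which 12.8% were at least 1.5-fold higher and 6.68% at least 1.5-fold lower. The share of all genes above 0 is thus not matched to them in mean value. Mybl2, a transcription factor of the G1/S and G2/M programmes, had 0.96 with IL-3 and -0.34 without IL-3, 2.47-fold higher. The mitotic kinase genes Plk1 and Bub1b were 1.76-fold and 1.73-fold higher. One member, Top2a, had 2 probe sets that went opposite ways, at 0.34 and -0.34. Beside the higher values of these genes, the 10 p53 target genes had a median of -0.04, with 8 below 0, and ranged from -1.58 to 0.34. The 35 further targets had a median of -0.06, with 19 below 0, and ranged from -1.02 to 0.66. A part of p53 in the differences of the repressed genes was not tested.

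Markers of other cell types also differed between the arrays. The values carry no level, so they could not show whether the pro-B label is borne out by its markers. Of 9 mast cell and basophil markers, 3 had differences of 2-fold or more on the lower side and 6 were below 0, with Fcer1a at -2.46 and Cpa3 at -1.11. The other 3 were above 0, Tpsb2 at 0.19, Kit at 0.18 and Hdc at 0.003. The summed values of the 9 were -1.87 with IL-3 and 3.63 without IL-3. Of 6 granulocyte markers, 3 were below 0, with Ngp at -2.87 and Itgam at -1.08. The other 3 were above 0, S100a9 at 0.38, Mpo at 0.17 and S100a8 at 0.16. B-lineage markers had 7 of 14 below 0 (Ptprc at -0.73, Cd79a at -0.35), macrophage markers 4 of 6 (Adgre1 at -0.79, Lyz2 at 0.24) and T cell markers 1 of 5 (Cd3g at -0.80, Cd3d at 0.22). The summed values of these lists with and without IL-3 were -2.80 and 0.51 for granulocytes, -1.001 and -0.136 for the B lineage, 0.39 and 1.18 for macrophages, and -0.49 and -0.17 for T cells. Single genes weighed heavily in such sums, among them Ngp at -2.15 with IL-3, and Fcer1a at 1.88 and Cd3g at 0.59 without IL-3. Ptprc, at -0.13 with IL-3 and 0.60 without IL-3, weighed likewise in the B-lineage sum and is not confined to that lineage. The T cell sum was lower with IL-3 although 4 of the 5 T cell markers were above 0. Of the 10 p53 target genes 8 were below 0, as were 6 of the 9 mast cell markers, against 40.1% of all genes. Trp53inp1, Fas and Mdm2 lay furthest below 0. Of the 8, 5 differed by less than 1 SD between probe sets, so their signs mean little. The part of cell type in the differences of the p53 target genes was not tested. In bulk RNA, fewer cells of a type and less RNA per cell cannot be told apart.

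The members with the largest differences kept their values closely under other scalings. Over the deposited scale, median centring, quantile normalization and a subtracted loess trend, Trp53inp1 ranged from -1.65 to -1.58, Fas from -0.60 to -0.56, Mdm2 from -0.33 to -0.26 and Sesn2 from 0.33 to 0.34. Every one of the 10 genes kept its sign under these 4 scalings. Perp ranged from -0.05 to -0.004, within the SD between probe sets, so its kept sign means little. Median centring moved every difference down by the same amount, so it could not turn a negative sign. These scalings use the same 2 arrays, so they say nothing about variation between cultures.

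**Figure D4:**
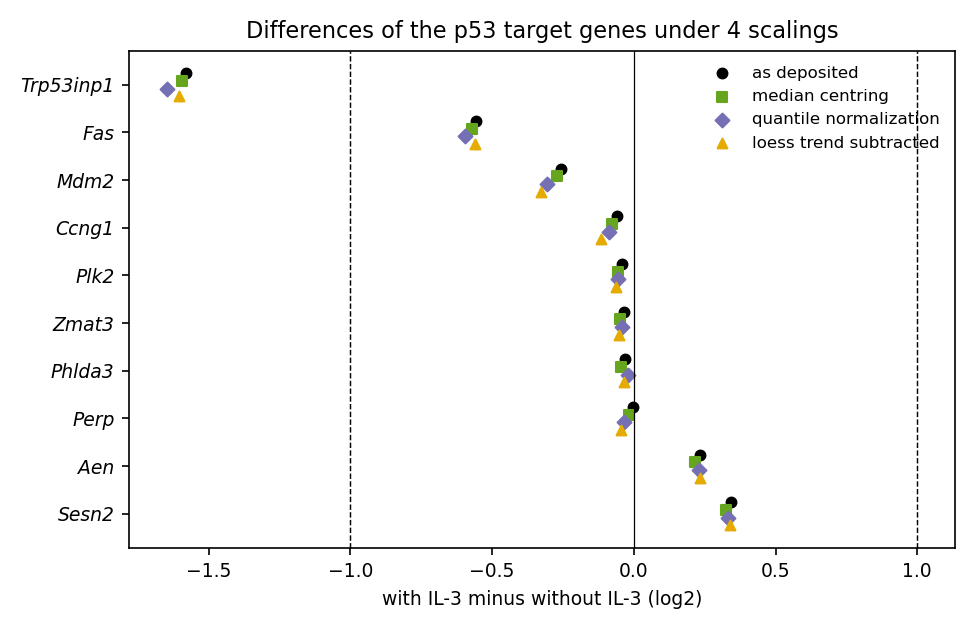
Difference with IL-3 minus without IL-3 (log2, horizontal axis) of each p53 target gene under 4 scalings of the 2 arrays, with dashed lines at 2-fold. Trp53inp1 stays below -1 in each scaling and the other 9 genes stay between -0.60 and 0.34.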

How the data were processed

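RNA was measured on 2 Affymetrix mouse Gene 1.0 ST arrays, 1 per condition, hybridised with biotin-labelled sense-strand cDNA, per the labels' protocols. The deposited values are taken as log2 values; the base, summarisation, background correction and normalization are named by neither the labels nor the file. In 6.11% of 28815 probe sets the values of both arrays were equal and opposite, within a tolerance of 1e-05. From this it is inferred that a baseline had been subtracted per probe set and that it drew on further arrays. The column medians were -0.03 with IL-3 and -0.05 without IL-3 (Pearson r 0.77 across probe sets, which are not independent replicates).

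Probe sets naming 1 gene in the platform annotation (21780) were used, and those naming several (1605) or none (5430) were not. Per gene the probe set whose mean over both arrays was highest was kept. Genes were counted at fixed folds of 2 and 1.5. Genes named are the 10 members; from the wider list Mdm4, Bbc3, Pmaip1 and each gene past 1.5-fold; the 3 largest differences among genes repressed through p21; and the 2 largest of each marker list. Top2a and the mast cell and granulocyte markers above 0 were named in addition, after their values were seen. Groups follow the sample titles. The members and lists were chosen with earlier results of these data known. Alternatives were median centring, quantile normalization, a loess trend (statsmodels 0.14.6, fraction 0.3), averaged probe sets, natural logs, a 1.5-fold threshold and a filter on low values. The steps were tested on simulated data. Python 3.11.15 and pandas 2.3.3 were used, and having 1 array per condition is the main limit on precision.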

Additional observations from a re-analysis of the deposited data

How the results depend on the processing

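The counts of p53 target genes past 2-fold stayed at 1 lower and 0 higher, and their median difference moved by less than the SD between probe sets under every alternative run for them, from -0.06 after the loess trend to -0.04 as deposited. Among the 10 genes, natural logs moved Trp53inp1, Fas and Sesn2 by more than that SD, to -2.28, -0.80 and 0.49, and no other alternative did so for any member; under the filter Perp was left out. In the wider list, 2 genes instead of 1 were at least 2-fold lower after median centring, after the loess trend and as natural logs, because Plk3 passed the line (-1.01, -1.14 and -1.44). After quantile normalization the count was again 1, but the gene was Plk3 (-1.08) and not Btg2. As natural logs 2 genes were higher, Atr and Chek1, and at 1.5-fold 4 were lower and 4 higher. Among the genes repressed through p21, 4 were higher as natural logs and 5 at 1.5-fold, against 1, and their median was 0.42 after the loess trend and 0.84 as natural logs, against 0.58. With averaged probe sets 1 of the 11, Top2a, was below 0. No paired analysis was possible because each condition had 1 array. For the same reason no array could be left out.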

Other observations

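The genes next to the members on the chromosome, read from the RefSeq gene order after the members' values were seen, were examined for the same difference. Each member had a measured neighbour on either side, 20 in all, of which 14 were above 0 and 6 below 0, with a median of 0.08. Of all genes, 59.8% were above 0, with a median of 0.04. Past 1.5-fold in either direction lay 4 of the 20, against 2.71% of all genes lower and 3.52% higher. The neighbours of Trp53inp1 went the opposite way from it. Ccne2, cyclin E2, had 0.88 with IL-3 and 0.27 without IL-3, a difference of 0.61, and Ndufaf6, an assembly factor of respiratory complex I, had 0.10 with IL-3 and -0.22 without IL-3, a difference of 0.32.

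Past 2-fold lay 1 neighbour, on the lower side, against 0.657% of all genes lower and 0.441% higher. Slc35e3, a member of a nucleotide sugar transporter family that lies next to Mdm2, had 0.28 with IL-3 and 1.71 without IL-3, 2.69-fold lower. Mdm2 itself was 1.19-fold lower, and the neighbour on its other side, Cpm, differed by -0.08. Next to Ccng1, which differed by -0.06, Nudcd2 had 1.29 with IL-3 and 0.60 without IL-3, a difference of 0.69. Next to Plk2, which differed by -0.04, Gapt, an adaptor of haematopoietic cells, had 0.08 with IL-3 and 0.68 without IL-3, a difference of -0.60. These neighbours were named after their values were seen, and each rests on 1 array per condition.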
